A study of Homo sapiens with 6 samples.

Results

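YWHAH and the 14-3-3 family are the 7 human genes YWHAB, YWHAE, YWHAG, YWHAH, YWHAQ, YWHAZ and SFN, out of 19775 genes read by the array. They were followed through every probe set annotated with only their own symbol, which gave 20 probe sets of 54613 tested: 3 each for YWHAB, YWHAH, YWHAQ and SFN, 5 for YWHAZ, 2 for YWHAE and 1 for YWHAG. YWHAH was selected on its higher level in miR-224 than in control cells of these same arrays, so that difference is given below as a description, without a test. The other 6 genes came in by family and not by value. All samples were HCT116, an established human colon carcinoma line grown with serum. Of the 6 Affymetrix expression arrays, 3 came from cells transfected with control oligos and 3 from cells transfected with precursor molecules of miR-224, each at 50 nM, with total RNA taken at 24 h. The titles number both groups 1 to 3 and the series describes pairs from independent experiments, so the difference between miR-224 and control cells was taken within experiments 1, 2 and 3. Values are log2 levels as deposited after RMA, the array summary that makes arrays alike, although base 2 is its usual output and is not stated; a difference of 1 is then a doubling. The brightness of one probe set cannot be set against that of another as a measure of transcript amount, so differences are taken only within a probe set. Where levels are ranked or set beside a median, this is a coarse description of bright and dim probe sets.

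The 14-3-3 proteins are small acidic dimers that bind other proteins at phosphorylated serine or threonine. By docking on such sites they hold kinases in an inactive or active shape, keep CDC25 phosphatases and the coactivator YAP in the cytoplasm, and mask the death-promoting protein BAD. The 7 isoforms share most of their fold and many partners; SFN, the sigma isoform, is the one tied to epithelium and to arrest after DNA damage. MicroRNAs pair through their seed, bases 2 to 8, with sites in messenger RNAs and lower the level or translation of those messages. The agent compared here is miR-224, whose mature strands are shown because the seed is what a target would have to match. The precursor gives 2 strands, here as in the RefSeq annotation of GRCh38.p14, 5′ to 3′, on the minus strand of chrX:151958628-151958652 and chrX:151958584-151958606, with the seed in capitals.
hsa-miR-224-5p: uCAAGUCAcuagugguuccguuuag
hsa-miR-224-3p: aAAAUGGUgcccuagugacuaca
Whether 14-3-3 messages hold matches to these seeds was not analysed here.

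The arrays carried most of the listed markers of colon epithelium, the origin of the labelled cell. Of 10 colon epithelial markers, 9 lay at or above the median level of all genes (4.75), led by KRT18 at a mean of 12.28, KRT19 at 11.30 and EPCAM at 10.43, while VIL1 stood at 3.95. None of 4 leukocyte and none of 4 endothelial markers reached that median. It was reached by 1 of 6 fibroblast markers (COL1A1 at 5.96) and 2 of 6 neuronal ones (TUBB3 at 10.78 and SYT1 at 6.49). Both arrays of experiment 1 stood apart in control probe sets at the 5′ end and in the middle of transcripts. The actin 5′ probe set read 4.14 to 4.42 there and 12.26 to 12.49 in experiments 2 and 3, and the GAPDH 5′ probe set 3.80 to 4.39 against 12.96 to 13.03. The middle probe set of actin read 6.63 to 6.86 against 12.43 to 12.62, and that of GAPDH 9.76 to 10.14 against 13.08 to 13.12. The 3′ probe sets of both transcripts differed far less, with actin at 12.52 to 12.53 against 12.41 to 12.54. Each experiment holds 1 array of each group, so this low 5′ and middle signal occurs in both groups. Whether it is low to the same degree in both, and its part in the results below, were not tested.

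YWHAH, which encodes the eta isoform, was higher in miR-224 cells in each experiment on its bright probe set, 201020_at. Control cells read 8.53, 7.57 and 7.92 in experiments 1, 2 and 3, and miR-224 cells 9.33, 8.94 and 8.60. All 3 miR-224 values lay above all 3 control values, but only just, since the lowest miR-224 value (8.60, experiment 3) exceeded the highest control value (8.53, experiment 1) by 0.07. Within experiments the differences were 0.80, 1.37 and 0.68, or 1.74-fold, 2.59-fold and 1.60-fold. The mean was 8.01 ± 0.486 (SD, n = 3) in control cells and 8.96 ± 0.366 (SD, n = 3) in miR-224 cells, a difference of 0.95 ± 0.15 (SE with experiment as a block) or 1.93-fold, and the SE was 0.30 without the block. Without experiment 1, the one with low 5′ and middle signal, the difference was 1.02. As a description of the value that led to its choice, this difference ranked 3 among the 9888 genes that reach the median of 4.75, and 2 of those genes, YWHAH included, were higher by at least 0.68 in all 3 experiments. The arrays read bulk RNA, so more transcript per cell and more cells with the transcript cannot be told apart.

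The other 2 YWHAH probe sets were dim and did not show this rise. Probe set 242325_at read 3.02, 2.80 and 2.87 in control cells and 2.70, 2.56 and 2.69 in miR-224 cells, so that it was lower in every experiment (by -0.32, -0.24 and -0.18), with no overlap between the groups. Probe set 236559_at read 2.37, 2.09 and 2.15 in control cells against 2.29, 2.25 and 1.94, and its groups overlapped. Both lay under the median level of all probe sets (3.48), where 33.6% and 11.7% of probe sets were dimmer still, whereas 201020_at lay above 95.3% of them. With the mean of all 3 probe sets in place of the bright one, the YWHAH difference was 0.22. Which transcripts the dim probe sets read was not analysed here.

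**Figure D1:**
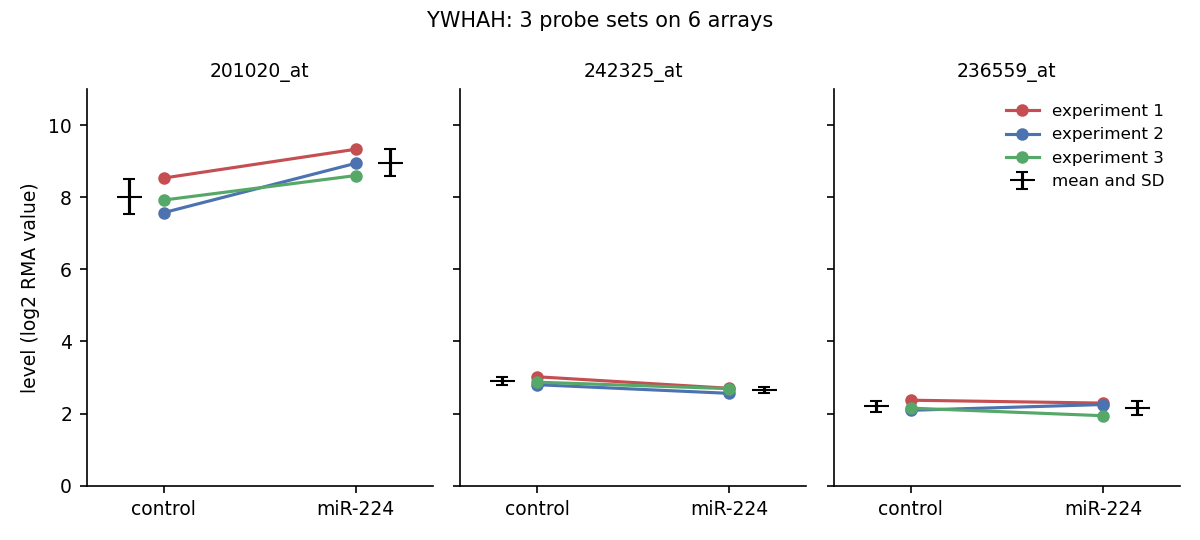
Levels of the 3 YWHAH probe sets (log2 RMA value, vertical axis) in control and miR-224 cells, with a line for each experiment and the mean and SD (n = 3) beside the points. The bright probe set, 201020_at, goes up along all 3 lines, from a mean of 8.01 to 8.96, while both dim ones lie at 3.02 or lower.

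None of the other 6 family genes passed the test. Over their 17 probe sets, limma with experiment as a block and Benjamini-Hochberg adjustment over all 54613 probe sets called 0 at an adjusted p under 0.05 (lowest adjusted p = 0.51), and 0 had an unadjusted p under 0.05. The same fit called 0 probe sets of the whole array (0%; lowest adjusted p = 0.072), while 5352 (9.8%) had an unadjusted p under 0.05. The 17 differences ran from -0.28 to 0.18 with a median of 0.004, against 0.005 for all probe sets, and 9 were above and 8 below 0. Their 95% intervals reached from -0.57 at the lowest to 0.43 at the highest, so that smaller differences than these are not settled by 3 pairs of arrays. Without the block, 0 were called again, and 0 had an unadjusted p under 0.05 (array-wide 1.95%).

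SFN, the sigma isoform, which is made in epithelial cells and holds CDK1 and cyclin B out of the nucleus, had means below 0 on all 3 probe sets, none of which passed. Probe set 209260_at read 9.17, 9.96 and 10.40 in control cells of experiments 1, 2 and 3 and 9.19, 9.55 and 9.94 in miR-224 cells. The pairs of experiments 2 and 3 differed by -0.41 and -0.47, and that of experiment 1 by 0.02. The mean difference was -0.28 ± 0.13 (SE), with a 95% interval of -0.57 to 0.00 and a limma adjusted p of 0.51. The brightest SFN probe set, 33322_i_at, read 11.88, 11.91 and 12.21 against 11.78, 11.64 and 11.95, lower in every experiment by -0.11, -0.27 and -0.25 (mean -0.21, 95% interval -0.45 to 0.03). The third, 33323_r_at, stood at 0.04, -0.28 and -0.27. In each probe set the groups overlapped. The differences of all 3 SFN probe sets were thus below 0 in experiments 2 and 3 and between -0.11 and 0.04 in experiment 1, and whether the experiments differ in this was not tested.

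YWHAZ, the zeta isoform, a scaffold of survival signalling, was read by 5 probe sets with differences from -0.22 to 0.18. The brightest, 200640_at, read 10.81, 11.36 and 11.48 in control cells and 11.14, 11.32 and 11.42 in miR-224 cells, a mean difference of 0.07 (95% interval -0.19 to 0.34). In experiment 1 the miR-224 array was higher on 4 of the 5, by 0.25 to 0.32, while in experiments 2 and 3 those 4 lay between -0.07 and 0.13. One of them, 200641_s_at, was higher in all 3 experiments, by 0.31, 0.13 and 0.10. The dimmest, 214848_at, stood at -0.08, 0.04 and -0.61, so its mean of -0.22 rests on experiment 3.

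YWHAE, the epsilon isoform, which pairs with other isoforms and binds CDC25 phosphatases, had a mean difference of -0.01 on 210996_s_at (95% interval -0.25 to 0.23), with control values of 10.66, 10.51 and 10.52 and miR-224 values of 10.72, 10.39 and 10.56. Its other probe set, 210317_s_at, stood at 0.41, -0.16 and 0.14, a mean of 0.13 (95% interval -0.16 to 0.43), with the largest difference in experiment 1, where it was dim. YWHAB, the beta isoform, stood at -0.04 on its brightest probe set, 217718_s_at (95% interval -0.28 to 0.20). Its second probe set, 217717_s_at, read 9.55, 9.04 and 8.55 in control cells and 9.36, 8.47 and 8.49 in miR-224 cells. It was lower in every experiment, by -0.20, -0.57 and -0.06, with a limma adjusted p of 0.53. The remaining YWHAB probe set, 208743_s_at, stood at -0.05 (95% interval -0.29 to 0.20). All 3 YWHAB means were below 0 and none passed.

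YWHAG, the gamma isoform, which becomes phosphorylated after growth factors act, was read by the single probe set 222985_at, at 10.98, 10.62 and 10.25 in control cells and 10.97, 10.53 and 10.37 in miR-224 cells. Its mean difference was 0.00 ± 0.11 (SE), with a 95% interval of -0.24 to 0.24. YWHAQ, the theta isoform, first known from brain and T cells, stood at 0.03 on 213699_s_at (95% interval -0.21 to 0.26), 0.02 on 200693_at and 0.04 on 212426_s_at. On all 3 of its probe sets experiment 1 was below 0, by -0.04 to -0.19, and experiments 2 and 3 were above 0, by 0.03 to 0.19.

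The signs over the 3 experiments were counted for the family beside those of the whole array. Of the 20 probe sets, 2 were higher in all 3 experiments, YWHAH 201020_at and YWHAZ 200641_s_at, where 16.5% of all probe sets were. Another 3 were lower in all 3 experiments, YWHAH 242325_at, YWHAB 217717_s_at and SFN 33322_i_at, against 14.8% of all probe sets. Groups that did not overlap were found in 1 probe set upward (array-wide 4.02%) and 1 downward (array-wide 2.64%), both of them YWHAH, which was chosen for its difference. With experiments 2 and 3 alone, 5 were higher and 7 lower in both, where 29.2% and 26.4% of all probe sets were. Counts over 20 probe sets this near the array-wide shares are no result about the family.

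**Figure D2:**
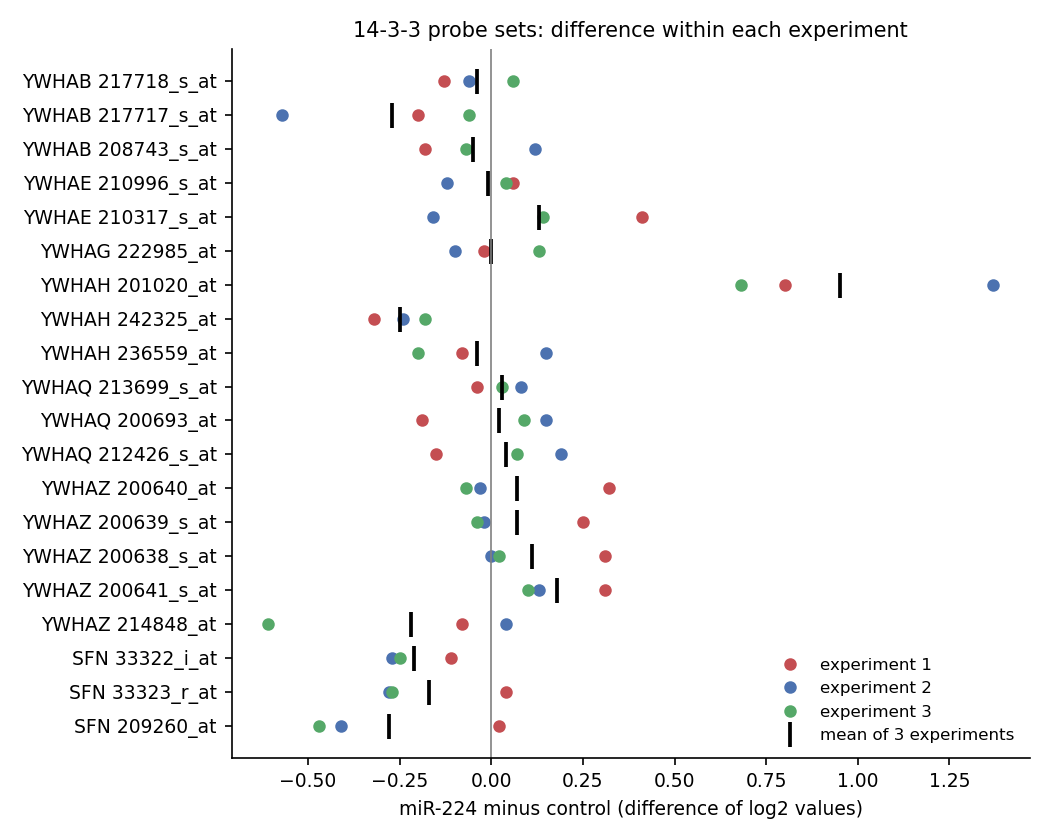
Difference between miR-224 and control cells (log2 scale, horizontal axis) for each of the 20 probe sets of the 14-3-3 genes, with 1 point per experiment and a bar at the mean of the 3. YWHAH 201020_at stands at 0.95 with every point at 0.68 or above, while the means of the other 6 genes lie between -0.28 and 0.18.

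The difference between experiments, which played no part in choosing the genes, was much larger for some 14-3-3 probe sets than any difference between treatments. In the limma contrast of experiment 1 against experiments 2 and 3, 5 of the 20 fell in experiment 1 (array-wide 11.5%, and 19.5% of probe sets at or above the median level) and 7 rose (array-wide 17.7%, and 31% at or above the median level). Experiment 1 is a single experiment with 1 array of each group, so the SE and adjusted p of this contrast rest on the spread within experiments and leave out that between independent experiments. On simulated data, with far fewer changed probe sets than were called on the real arrays, this fit made more false calls than its threshold implies. How far that carries over to the real arrays was not tested. YWHAE 210317_s_at read 2.55 and 2.96 in control and miR-224 cells of experiment 1, and 10.17, 10.01, 10.07 and 10.22 in the other 4 arrays. It fell by 7.36 ± 0.14 (SE) on the log2 scale in experiment 1 (limma adjusted p = 2.7e-08). The readings in experiment 1 lie under the median level of all probe sets (3.48), and whether they exceed background was not analysed here, so this size is to be read as a minimum. The other YWHAE probe set, 210996_s_at, had a mean of 10.69 in the first experiment and of 10.49 in the others (difference 0.19, adjusted p = 0.26). The reading of this gene in experiment 1 thus depends on the probe set.

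YWHAZ showed the same split among its own probe sets. On 200641_s_at the arrays of experiment 1 read 4.92 and 5.23, and the other 4 read 11.26 to 11.39, so that it fell by 6.24 ± 0.11 (SE; limma adjusted p = 2.5e-08). On 200638_s_at they read 9.56 and 9.88 against 11.05 to 11.25, so that it fell by 1.43 ± 0.12 (adjusted p = 4.4e-05). On 200639_s_at experiment 1 differed by -0.06 (adjusted p = 0.79). SFN 209260_at fell in experiment 1 by 0.78 ± 0.13 (adjusted p = 0.0022), while the other SFN probe sets both differed by -0.10 (adjusted p = 0.60 and 0.63). The 5′ and middle probe sets of actin and GAPDH were low on the same arrays, and their part in these differences was not tested. Where along each transcript the 14-3-3 probe sets lie was not analysed here.

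Among those that rose in experiment 1, YWHAB 217717_s_at was higher by 0.81 ± 0.13 (SE; limma adjusted p = 0.0017). The bright YWHAH probe set was higher by 0.67 ± 0.15 (adjusted p = 0.010), which is less than its difference of 0.95 between treatments. The call was lost without control replicate 1 (0.56, adjusted p = 0.11) and with no miR-224 term in the fit (0.67, adjusted p = 0.27). YWHAG was higher by 0.53 ± 0.11 (adjusted p = 0.0067), lost without control replicate 1 (0.51, adjusted p = 0.059). Over 13 alternatives, 5 of the 12 calls held in each that tested them, namely YWHAE 210317_s_at, YWHAZ 200641_s_at and 200638_s_at, SFN 209260_at and YWHAB 217717_s_at. The other 7 were lost in at least 1, and without control replicate 1 the number that rose was 1. Because both groups are present in each experiment, the part of these differences that both arrays of a pair share cancels within the pair. A part that they do not share stays in the difference between treatments, and its size was not tested. On YWHAE 210317_s_at that difference was 0.41 in experiment 1 and -0.16 and 0.14 in experiments 2 and 3. The differences between experiments also set the SD of each group: it was 4.37 in control cells for YWHAE 210317_s_at and 0.0819 for 210996_s_at.

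Probe sets with names ending in _s_at were designed to match several transcripts, and RefSeq names 10 pseudogenes each for YWHAZ and YWHAQ, 7 for YWHAE and 2 for YWHAB, but 0 for YWHAH, YWHAG and SFN. Signal from such copies cannot be told apart from that of the genes themselves.

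**Figure D3:**
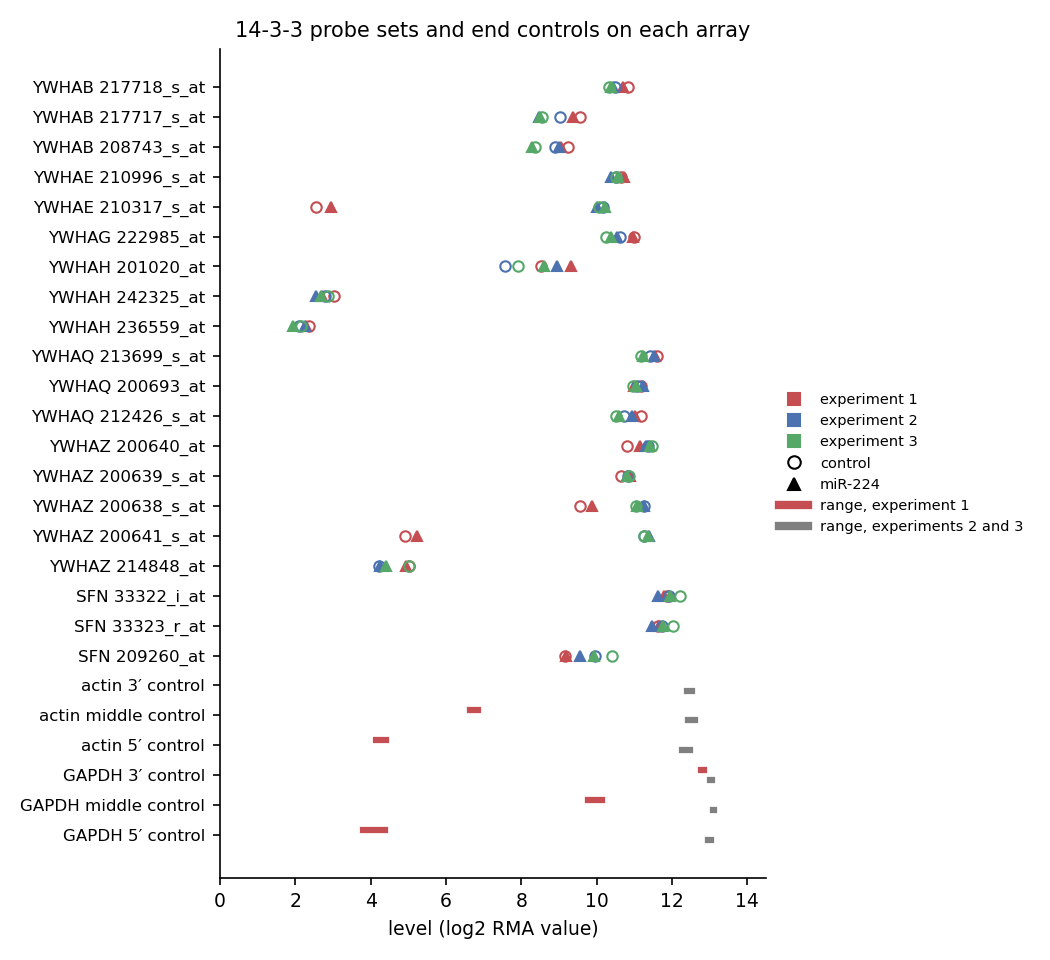
Level (log2 RMA value, horizontal axis) of the 20 probe sets of the 14-3-3 genes on each array, with open circles for control and filled triangles for miR-224 cells, coloured by experiment, and below them the range of the actin and GAPDH control probe sets by position in the transcript. YWHAE 210317_s_at and YWHAZ 200641_s_at lie far to the left in experiment 1 only, at 2.55 to 5.23, as do the 5′ controls. The middle controls also lie to the left there, but less far. The actin 3′ range of experiment 1 (12.52 to 12.53) is too narrow to show.

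Genes whose proteins bind 14-3-3 proteins, act on them or on their binding sites, or regulate SFN are together called partners here. They were read from 9 lists of 117 genes, of which 112 were measured and 5 were not analysed here. Each was read by its brightest probe set. None passed the test between miR-224 and control cells (limma with the block, lowest adjusted p = 0.23; 0% of all 19775 genes passed). At an unadjusted p under 0.05, 13 of the 112 were lower (11.6%, against 5.19% of all genes and 7.64% of genes at or above the median level, where 105 of the 112 lie) and 3 were higher (2.68%, against 5.05% and 4.45%). Lower in all 3 experiments were 28 (25.0%, against 14.4% and 18.8%) and higher in all 3 were 12 (10.7%, against 18.3% and 16.5%). In 6 of the 112 (CFL1, HDAC4, MITF, RICTOR, TFE3 and YAP1) all miR-224 values lay below all control values (5.36%, against 2.11% of all genes and 1.49% of those that reach the median level), and in 0 all lay above (4.16% and 1.53%). These 6 are named because of their values. HDAC4 (mean 4.73) and MITF (mean 3.99) lie under the median level of 4.75, so 1.49% is not a like share for all 6. The lists were chosen with earlier results of these data known, so all these shares are given as a description. The median difference over the 112 was -0.031, against 0.012 over all genes, dim ones included. For genes at or above the median level this median is not given here, so the 2 values are not from sets of like level.

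Enzymes that write and erase the phosphorylated binding sites included the lowest difference of the 112 genes. MAPK8, the stress kinase JNK1, which phosphorylates 14-3-3 proteins and so frees their partners, read 7.65, 7.26 and 6.73 in control cells and 7.01, 6.76 and 6.34 in miR-224 cells, a difference of -0.51 ± 0.11 (SE; limma adjusted p = 0.25). AKT1, the kinase that prepares BAD and FOXO proteins for binding, stood at 0.04 ± 0.11, and PRKACB, a catalytic subunit of protein kinase A, at 0.21 ± 0.11. The 22 kinases had 9 means above and 13 below 0, with a median of -0.05. The lowest was PPP2R1B, which builds the scaffold of a phosphatase that strips such phosphates, at -0.39, -0.94 and -0.95 in experiments 1, 2 and 3 (mean -0.76 ± 0.14, limma adjusted p = 0.23). With all probe sets of each averaged, the differences were smaller, at -0.25 for PPP2R1B and -0.29 for MAPK8. With experiments 2 and 3 only, PPP2R1B passed (-0.94, limma adjusted p = 0.036), where 137 probe sets of the array did (0.251%). That fit leaves 1 residual degree of freedom. PPP2R1B, named here for its small p, did not pass without experiment 2 (-0.67, limma adjusted p = 0.71) or without experiment 3 (-0.66, limma adjusted p = 0.52). The other phosphatase genes lay closer to 0, PPP2R2A at -0.20 ± 0.11, and the median of the 15 was 0.05.

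Among signalling partners, 7 of 11 receptor and RAS pathway genes had a lower mean (median -0.05). GRB10, an adaptor of insulin receptor signalling, stood at -0.34, -0.87 and -0.50 (mean -0.57 ± 0.13, limma adjusted p = 0.27; -0.15 by the mean of its probe sets), and KSR1, a scaffold of the MAP kinase cascade, at 0.07, -0.10 and -0.60. Of 13 cell cycle partners, 10 had a higher mean (median 0.07). The CDC25 phosphatases, which 14-3-3 proteins hold in the cytoplasm, were each within 1 SE of 0: CDC25A stood at 0.11 ± 0.16, CDC25B at 0.07 ± 0.12 and CDC25C at 0.07 ± 0.14. WEE1, the kinase that opposes them, stood at -0.30 ± 0.13, KIF23, a kinesin of the central spindle, at -0.42 ± 0.14 (-0.12 by the mean of its probe sets), and CDK1 at 0.20 in experiments 1 and 3 and 0.21 in experiment 2. None of these passed.

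The 10 apoptosis partners split evenly, with 5 means on either side of 0. BAD, which promotes cell death unless 14-3-3 proteins hold it, stood at 0.29, 0.08 and 0.07 (mean 0.15 ± 0.11; 0.02 by the mean of its probe sets). FOXO3, a transcription factor kept out of the nucleus by 14-3-3 proteins, read 8.12, 7.38 and 7.91 in control cells and 8.62, 8.16 and 7.99 in miR-224 cells, a difference of 0.45 ± 0.14 (limma adjusted p = 0.38; 0.26 by the mean of its probe sets). It was the highest of the 112, with overlapping groups. FOXO4 stood at 0.20 ± 0.13 and MAP3K5, the stress kinase ASK1, at -0.33 ± 0.11 (-0.19 by that mean).

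Of 13 transcription factor and coregulator partners, 10 had a lower mean and 6 were lower in all 3 experiments (14.4% of all genes were, and 18.8% of those that reach the median level), with a median of -0.09. None of the 13 passed. YAP1, the Hippo pathway coactivator, read 8.16, 8.14 and 8.25 against 8.04, 8.10 and 7.97 (mean -0.15 ± 0.11, or -0.08 by the mean of its probe sets), and its relative WWTR1 read 8.14, 7.80 and 8.04 against 7.97, 7.49 and 7.28 (mean -0.42 ± 0.13, limma adjusted p = 0.39). Of the histone deacetylase genes, HDAC4 stood at -0.26 ± 0.10, but at 0.03 by the mean of its probe sets, and HDAC7 at 0.28 ± 0.12; neither passed (limma adjusted p = 0.47 and 0.49). Metabolism and mTOR partners had 7 of 10 means below 0 (median -0.02), with RICTOR, a subunit of mTOR complex 2, at -0.33 ± 0.11 and TBC1D1, a regulator of glucose transporter traffic, at -0.29 ± 0.10.

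Cytoskeletal and polarity partners had 9 of 14 means below 0 and a median of -0.10. CFL1, the actin-severing protein cofilin, read 12.56, 12.47 and 12.54 in control cells and 12.35, 11.91 and 12.19 in miR-224 cells, a difference of -0.38 ± 0.11 (limma adjusted p = 0.36), but of -0.10 by the mean of its probe sets. PPP1R12A, the myosin phosphatase target subunit, stood at -0.18 ± 0.10 and KRT18, a keratin bound by 14-3-3 proteins, at 0.02 ± 0.10. Of 4 genes that act on SFN, DNMT1, a DNA methyltransferase, stood at 0.34, 0.62 and 0.21 (mean 0.39 ± 0.12, adjusted p = 0.36), and BRCA1 at 0.04, -0.75 and -0.19.

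**Figure D4:**
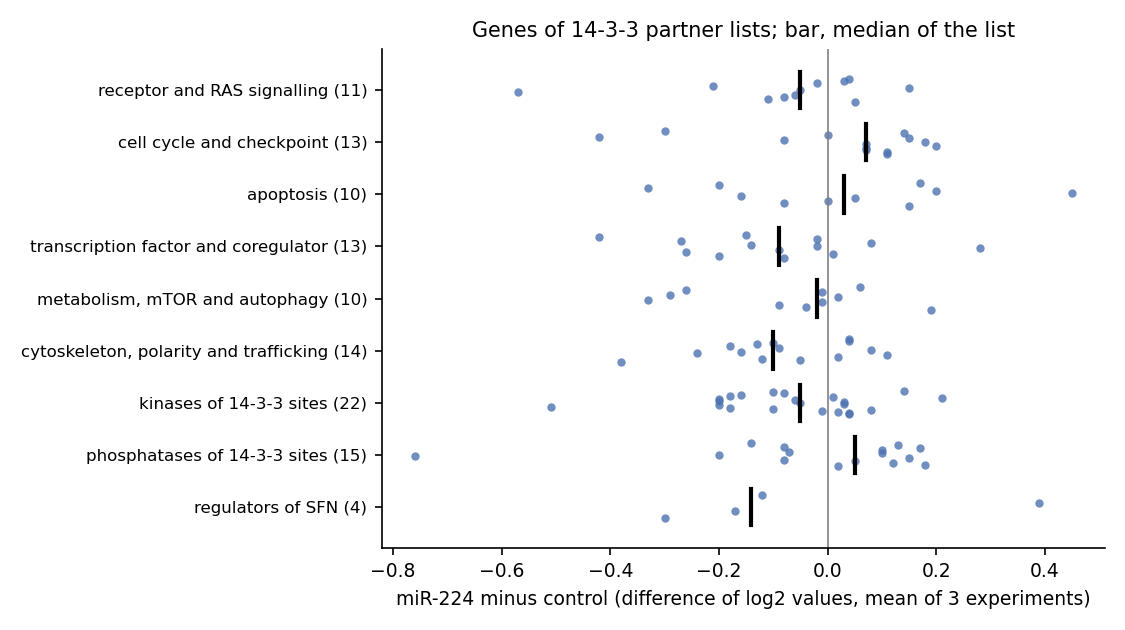
Mean difference between miR-224 and control cells over 3 experiments (log2 scale, horizontal axis) for each measured gene of the 9 lists of 14-3-3 partners and regulators, with the number of genes in brackets and a bar at the median of the list. The medians lie between -0.14 and 0.07, and single genes reach -0.76 (PPP2R1B) and 0.45 (FOXO3); none passed the test.

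The genes whose 3 differences were closest to those of YWHAH, by root mean square distance over the same 9888 genes, were PXYLP1, EMP2, TNRC6C, QKI and TMEM50B, and they are given as a description. PXYLP1, a phosphatase of proteoglycan synthesis, was higher in miR-224 cells by 0.63, 1.38 and 0.60, at a distance of 0.106 from YWHAH, and EMP2, an epithelial membrane protein, by 0.66, 1.18 and 0.55. TNRC6C, of the GW182 family that carries out silencing by microRNAs, was higher by 0.72, 1.26 and 0.42, and QKI, an RNA-binding regulator of splicing, by 0.56, 1.17 and 0.77. TMEM50B was higher by 0.42, 1.26 and 0.52, at a distance of 0.246. Each gene was read only by its brightest probe set, of 2 for PXYLP1, 4 for EMP2, 7 for TNRC6C, 10 for QKI and 5 for TMEM50B. Their other probe sets are not reported here. Since they were chosen by this distance, a largest difference in experiment 2, as in YWHAH, and much of the correlation with it are set by the choice. Over the 6 arrays, which pair within experiments and so are not independent, Pearson's r with YWHAH was 0.932 for PXYLP1, 0.953 for EMP2, 0.985 for TNRC6C, 0.828 for QKI and 0.945 for TMEM50B.

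**Figure D5:**
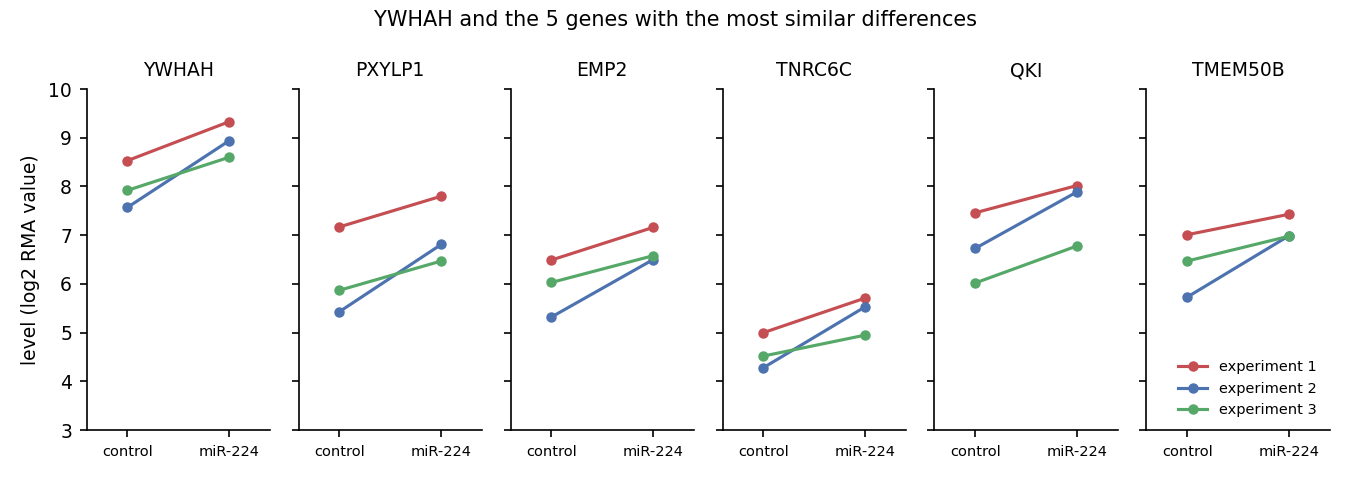
Levels (log2 RMA value, vertical axis, starting at 3) of YWHAH on 201020_at and of the 5 genes with the most similar differences, in control and miR-224 cells, with a line for each experiment. In all 6 genes the line of experiment 2 is the steepest, at 1.17 to 1.38.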

How the data were processed

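The authors' deposited log2 values per probe set come from 6 one-colour Affymetrix arrays and were made with RMA and Partek, per the submitters' processing notes; no versions are given. RMA gives all arrays like distributions, so a shift shared by most genes would not show. The fits covered 54613 probe sets, without 62 controls. The array annotation names 1 gene for 41091 of these, several for 1801 and none for 11721. A gene's brightest probe set has the highest mean over the 6 arrays.

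Every probe set was fitted in limma 3.58.1 (R 4.3.3; linear model with empirical Bayes variances, two-sided) with experiment as a block, leaving 2 residual degrees of freedom, and p-values were adjusted by Benjamini-Hochberg at a threshold of 0.05. Deviations from group means correlated at 0.902, 0.734 and 0.783 between same-numbered arrays and at -0.777 to 0.474 otherwise, so the numbers pair the arrays, as the series text also says. The fits were tested on simulated data, where the blocked fits of both comparisons made more false calls than their threshold implies. The members and lists were chosen with earlier results of these data known, and the partner lists come from textbook knowledge. Named were all 7 members, 10 measured partners fixed by name, up to 2 further genes per list by smallest p, the 5 genes most like YWHAH and its nearest measured neighbours. Figures were drawn with matplotlib 3.10.9.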

Additional observations from a re-analysis of the deposited data

How the results depend on the processing

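The YWHAH difference was 0.74 to 1.09 without single experiments and 0.93 to 1.01 under the other alternatives, except for 0.22 with the mean of its 3 probe sets. Between miR-224 and control cells, 0 probe sets were called with and without the replicate block, 2 at an adjusted p under 0.1, and 28 with an intensity trend and robust variances. The fits without single experiments leave 1 residual degree of freedom. They called 0 to 137 probe sets, and 0 to 1 of the partner genes. Without single experiments, 2 to 5 of the 14-3-3 probe sets were higher and 5 to 7 lower in every remaining one, where fewer pairs have to share a sign. Over genes, 1 member was higher and 2 were lower by gene mean, and 1 higher and 1 lower by brightest probe set. In the contrast of experiments, where fewer units were tested, 6369 genes were called by gene mean and 7038 by brightest probe set. The members that fell numbered 3 and 1 there, and those that rose 3 and 3; with another quantile normalization 4 rose, and without single arrays 1 to 6 did, the lowest without control replicate 1.

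No gene whose sign turned had been called. Without single experiments, YWHAB ran from -0.09 to 0.00, YWHAE from -0.04 to 0.05, YWHAG from -0.06 to 0.05, YWHAQ from 0.00 to 0.06 and YWHAZ from -0.05 to 0.14. CDC25A ran from -0.10 to 0.34, CDC25B from -0.01 to 0.19, CDC25C from -0.13 to 0.19, KRT18 from -0.02 to 0.07 and AKT1 from -0.04 to 0.12. YWHAG was -0.02 with another quantile normalization and -0.01 with median centring and with array weights, and KRT18 was 0.00 with median centring. By gene mean, YWHAE was 0.06, KSR1 0.07, CDC25A -0.21 and HDAC4 0.03. The cause was not tested. With 3 arrays a group, their number limits the precision.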

Other observations

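The nearest measured genes on either side of YWHAH in the RefSeq gene order of GRCh38.p14 did not pass the test between miR-224 and control cells (limma with the block). YWHAH-AS1, a long non-coding RNA gene on the opposite strand, was dim, at 2.99, 3.02 and 2.97 in control cells and 2.58, 3.21 and 3.30 in miR-224 cells, and stood at 0.04 ± 0.15 (SE; adjusted p = 0.96). DEPDC5, a subunit of the GATOR1 complex that restrains mTORC1, read 5.00, 5.42 and 5.25 against 4.71, 5.01 and 5.02, lower in every experiment by -0.28, -0.41 and -0.23 (adjusted p = 0.41). On the other side, the glucose transporter gene SLC5A1 stood at -0.13 ± 0.10 and C22orf42 at -0.11 ± 0.12, both at levels under the median of all genes.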
